A study of Mus musculus with 14 samples.

Results

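The proteasome genes described here are the 47 rows, of 22295 in the deposited table, whose gene symbol starts with Psma, Psmb, Psmc, Psmd, Psme, Psmf or Psmg followed by a digit, leaving out the 3 inducible immunoproteasome genes Psmb8, Psmb9 and Psmb10. They comprise 16 genes of the 20S core (8 of the alpha ring and 8 of the beta ring), 17 of the 19S cap (6 ATPases and 11 other subunits), 6 activators and inhibitors, 7 assembly chaperones, and Psmc3ip, which has the name pattern but acts in meiotic recombination. In 43 of the 47 the deposited description contains the word proteasome. Psme2b-ps is a pseudogene similar in sequence to Psme2, and reads of the pair may have been shared between them. The genes lie on 16 chromosomes.

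The proteasome is the protease that breaks down proteins tagged with ubiquitin. Its 20S core is a barrel of stacked alpha and beta rings, and the beta ring carries the catalytic sites facing the inside. The 19S cap binds ubiquitin, removes it, and unfolds the substrate with a ring of ATPases. Other activators can take the cap's place at the end of the barrel, dedicated chaperones assist assembly and then leave, and antibody-secreting cells are known to depend on proteasome activity.

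RNA sequencing was done on spleen B cells of mice, isolated by negative selection and stimulated in culture for 4 days with the bacterial product LPS at 5 µg/ml and the cytokine IL-4 at 10 ng/ml; this treatment was common to every library. The 5 miR155_KO libraries came from miR-155[-/-] mice, which lack the microRNA miR-155. The 5 PU1_KI libraries came from PU.1[155-/155-] mice, in which the miR-155 site in the transcript of the transcription factor PU.1 is known to be mutated while miR-155 itself is kept. The 4 WT libraries came from wild type mice. The series' text calls the replicates biological. The sources used here do not state strain, age or sex, or whether each library is 1 animal.

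Depth estimated from the smallest values was 31.5 M to 52.4 M reads per library. Sfpi1, which encodes PU.1, had 16.7, 17.1, 15.5, 15.8 and 18.3 RPKM in the miR155_KO libraries, 21.1, 22.5, 25.6, 25.96 and 23.3 in the PU1_KI libraries, and 9.73, 12.5, 13.2 and 12.6 in the WT libraries, and the 3 genotypes did not overlap; mature miR-155 was not measured by these libraries. Summed levels of 7 B cell markers were 1401 to 1515 RPKM in miR155_KO, 1591 to 1849.5 RPKM in PU1_KI and 1544 to 1781 RPKM in WT. None of the 7 macrophage, 6 neutrophil, 4 NK cell or 4 erythroid markers reached the expression filter, and S100a8, S100a9, Elane, C1qa and Hbb-b1 were at 0 in every library. The dendritic cell list had Flt3 and Zbtb46 above the filter and Itgax and Siglech near 0, and summed to 23.7 to 30.4 RPKM in miR155_KO, 25.3 to 32.04 RPKM in PU1_KI and 15.7 to 20.1 RPKM in WT. The T cell list had 1 of 7 genes above it, Lck, and summed to 5.54 to 7.08 RPKM in miR155_KO, 5.96 to 7.09 RPKM in PU1_KI and 7.17 to 8.595 RPKM in WT. The list of stroma and endothelium had 1 of 4, Pecam1, and summed to 3.09 to 3.85 RPKM in miR155_KO, 6.76 to 7.53 RPKM in PU1_KI and 6.51 to 7.41 RPKM in WT. In miR155_KO against WT the log2 fold change of Lck was -0.49 (adjusted p = 2.51e-05, limma) and that of Pecam1 -0.93 (adjusted p = 1.42e-10, limma). Flt3 was at 0.52 (adjusted p = 2.51e-05, limma) and Zbtb46 at 0.85 (adjusted p = 2.56e-09, limma) in that comparison. Against WT in PU1_KI, Flt3 was at 0.70 (adjusted p = 3.89e-06, limma) and Zbtb46 at 0.15 (adjusted p = 0.0953, limma). Under the filter, Emr1 averaged 0.738 ± 0.0827 RPKM in miR155_KO, 0.253 ± 0.0951 RPKM in PU1_KI and 0.1999 ± 0.0298 RPKM in WT, and Cd8a averaged 0.645 ± 0.0679 RPKM in miR155_KO, 0.0636 ± 0.0313 RPKM in PU1_KI and 0.0307 ± 0.0142 RPKM in WT (SD). The part of these markers in the proteasome results was not tested. In bulk libraries such as these, fewer cells of a type and less RNA per cell cannot be told apart.

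Values are RPKM, reads scaled to the length of the gene and the depth of the library, so levels can be compared between genes. The 45 proteasome genes with at least 1 RPKM in at least 4 libraries were tested; Psma8, an alpha subunit known from testis, had at most 0.0573 RPKM in any library, and Psmb11, the thymus beta subunit, had 0.111 to 0.1703 RPKM in miR155_KO, 0.0678 to 0.138 RPKM in PU1_KI and 0.0699 to 0.0999 RPKM in WT. Psmb1, a structural beta subunit, was the most abundant in all 3 genotypes, and averaged 133 ± 6.75 RPKM in miR155_KO, 157 ± 8.86 RPKM in PU1_KI and 145 ± 15.8 RPKM in WT (SD). Psma3 was the least abundant of the 14 core genes tested, and averaged 6.72 ± 0.644 RPKM in miR155_KO, 7.81 ± 0.5095 RPKM in PU1_KI and 7.84 ± 0.228 RPKM in WT. Median levels of the 14 core genes tested were 59.8 RPKM in miR155_KO, 65.3 RPKM in PU1_KI and 64.1 RPKM in WT. For the 17 cap genes the medians were 29.1 RPKM in miR155_KO, 33.3 RPKM in PU1_KI and 32.4 RPKM in WT.

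Libraries of 1 genotype differed in the same direction across most of the genes. The library miR155_KO_5 held the highest miR155_KO value in 39 of the 45 genes, against 54.3% of all 9627 genes tested. PU1_KI_4 held the highest PU1_KI value in 37 genes (57.6% of all genes) and WT_4 the highest WT value in 32 (49.2% of all genes). PU1_KI_1 was the lowest PU1_KI library in 32 genes (58.6% of all genes) and WT_1 the lowest WT library in 31 (57.4% of all genes). RPKM summed over all genes was also highest in miR155_KO_5, PU1_KI_4 and WT_4 within their genotypes, and the part of this in the results was not tested beyond leaving each library out. The median coefficient of variation of the 45 genes was 9.53% in miR155_KO, 7.19% in PU1_KI and 5.46% in WT.

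**Figure D1:**
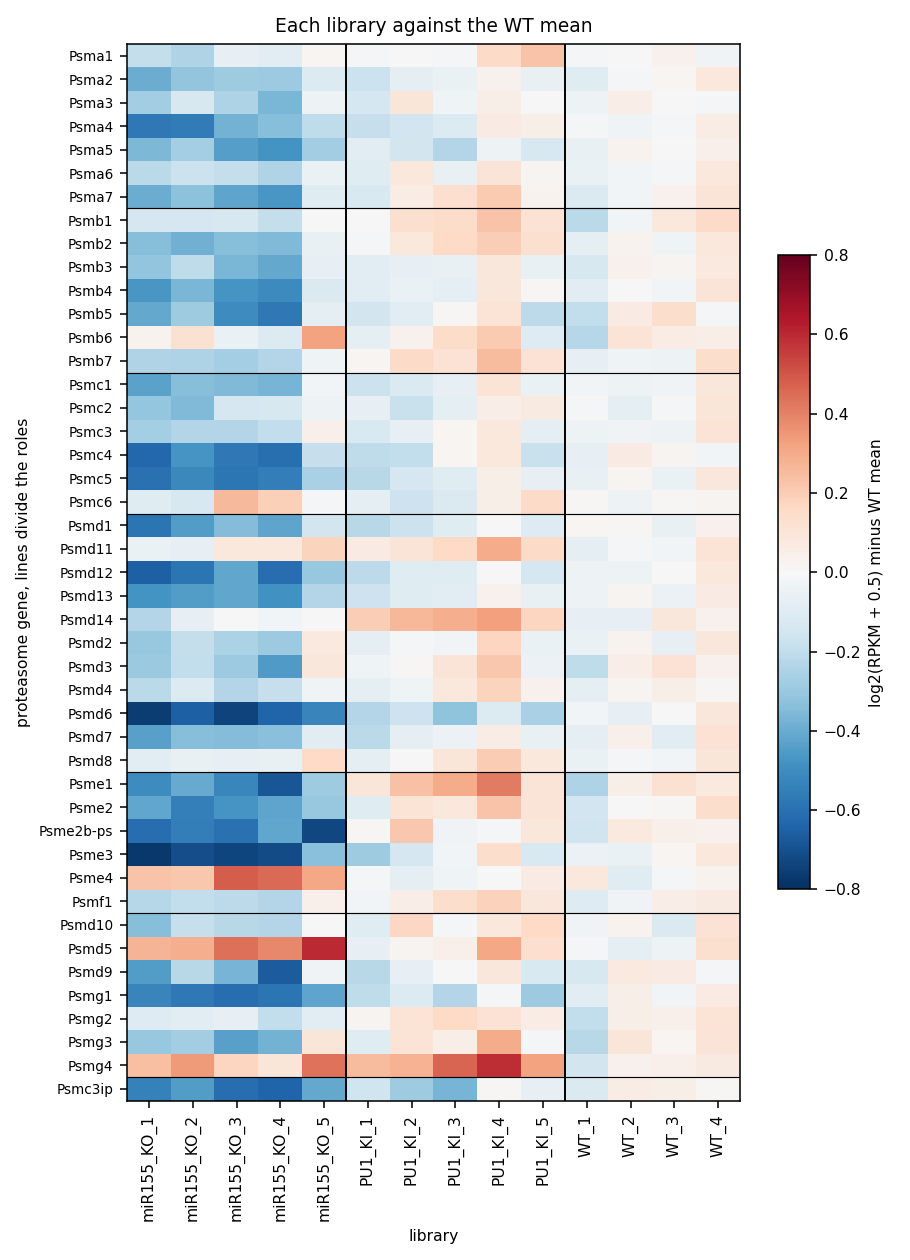
Log2(RPKM + 0.5) of each of the 45 tested proteasome genes (rows) in each of the 14 libraries (columns), minus the WT mean of that gene; blue is lower and red higher than the WT mean. Most rows are blue in the miR155_KO columns, palest in miR155_KO_5, and Psme4, Psmd5 and Psmg4 are red there.

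Proteasome transcripts were lower in miR155_KO cells than in WT cells across core and cap, while on the deposited scale PU1_KI cells differed from WT in few of them. Against WT, by the limma test, 34 of the 45 genes were lower in miR155_KO (75.6%, against 35.3% of all genes tested) and 3 were higher (6.67%, against 27.2%); 8 were not called, where 62.5% of all genes were called in either direction. The median log2 fold change of the 45 genes was -0.27, and that of all genes tested was -0.047. Every miR155_KO library was below every WT library for 17 of the genes, a separation found for 24.9% of all genes tested, and every one was above for 3, against 23.5%. In PU1_KI against WT, 2 genes were higher and 2 were lower (4.44% each), where 23.7% of all genes were higher and 4.03% lower (27.7% in either direction). The libraries did not overlap for 2 higher genes, against 18.4% of all, and 1 lower gene, against 3.76%. The median there was -0.0062, against 0.076 for all genes. The test was limma on log2(RPKM + 0.5) with p adjusted over all 9627 genes, and called means an adjusted p under 0.05.

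The mutants were also compared with each other, in a comparison that shares the miR155_KO libraries with the one against WT. In miR155_KO against PU1_KI, 38 of the 45 genes were lower (84.4%, against 46.4% of all genes) and 2 were higher (4.44%, against 17.9%), where 64.3% of all genes were called in either direction. The libraries did not overlap for 18 lower genes, against 29.7% of all, and for 1 higher gene, against 13.4%. The median was -0.26, and that of all genes was -0.13. Both mutant comparisons with WT use the same 4 WT libraries. Over the 3 genotype means, miR155_KO was the lowest in 39 of the 45 genes, the highest in 4 and between the others in 2.

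**Figure D2:**
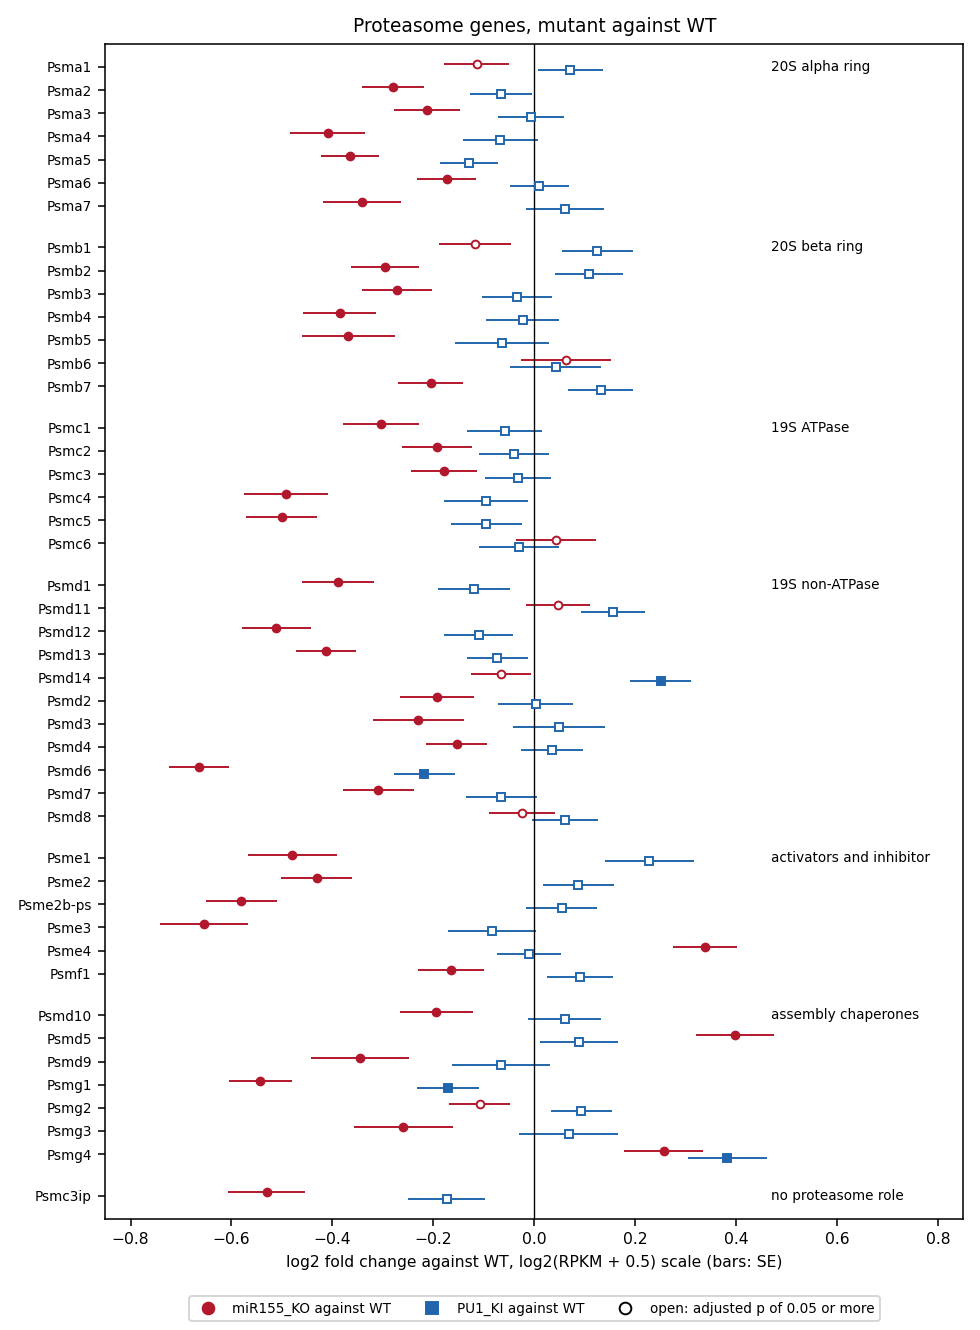
Log2 fold change of each tested proteasome gene in miR155_KO (red circles) and PU1_KI (blue squares) against WT, on the log2(RPKM + 0.5) scale with bars for SE, grouped by role; open symbols have a limma adjusted p of 0.05 or more. Most red circles are filled and left of 0, down to -0.66 for Psmd6, and 4 blue squares are filled.

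Scaling of the libraries changed some of these counts. With median-of-ratios scaling, which centres all genes near 0 in each comparison, 34 genes were lower and 4 higher in miR155_KO against WT, where 34.01% of all genes were lower and 34.05% higher. The same scaling gave 15 lower and 2 higher in PU1_KI against WT, and the 13 lower genes it added were Psma2, Psma4, Psma5, Psmc1, Psmc3, Psmc4, Psmc5, Psmc3ip, Psmd1, Psmd7, Psmd12, Psmd13 and Psme3. Of all genes 15.8% were then lower and 17.4% higher in PU1_KI against WT, so the background moved as well. The proteasome shares with this scaling were 33.3% lower and 4.44% higher, with a median of -0.091 against -0.0065 for all genes. In miR155_KO against PU1_KI it gave 24 lower and 4 higher, beside 31.3% of all genes lower and 31.5% higher, and it moved the median of all genes to -0.0039 there and the median of the proteasome genes to -0.13. The 2 genes it added to the higher calls in miR155_KO against PU1_KI were Psmb6 and Psmc6. Quantile normalization gave 28 lower and 5 higher in miR155_KO against WT, 14 lower and 2 higher in PU1_KI against WT, and 22 lower and 6 higher in miR155_KO against PU1_KI. With it, 36.9% of all genes were lower in miR155_KO against WT, 16.1% in PU1_KI against WT and 33.4% in miR155_KO against PU1_KI. The shares of all genes that were higher, in the same order, were 31.2%, 15.8% and 29.4%. Of the 34 genes lower in miR155_KO against WT, 25 were called in every setting in which they were tested. The other 9, lost in at least 1 setting, were Psma6, Psmc2, Psmc3, Psmd2, Psmd3, Psmd4, Psmd10, Psmf1 and Psmg3; the count was lowest, at 25, without WT_4.

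Transcripts of the 20S core are taken first. Of the 14 core genes tested, 11 were lower in miR155_KO against WT (78.6%, against 35.3% of all genes). None were higher, beside 27.2% of all genes, and the median log2 fold change was -0.28. Against PU1_KI, 13 of the 14 were lower in miR155_KO (92.9%, against 46.4% of all genes), with a median of -0.24. By limma none of the 14 was called in PU1_KI against WT, beside 27.7% of all genes, and 1, Psma5, had an unadjusted p under 0.05. With median-of-ratios scaling 3 of the 14, Psma2, Psma4 and Psma5, were called lower in PU1_KI against WT, beside 15.8% of all genes.

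The alpha ring forms the outer gate of the barrel. In miR155_KO against WT, 6 of its 7 tested genes were lower (85.7%, against 35.3% of all genes). Psma1 was not called, with a log2 fold change of -0.11. Psma7, the most abundant alpha gene, had 68.3, 71.7, 66.98, 65.1 and 83.9 RPKM in the miR155_KO libraries, 82.5, 93.7, 98.8, 104 and 91.9 in the PU1_KI libraries, and 83.2, 88.6, 91.99 and 96.5 in the WT libraries. The miR155_KO values of Psma7 were below all WT and PU1_KI values except in miR155_KO_5, which lay just above the lowest library of each. Psma7 was 1.27-fold lower in miR155_KO than in WT (log2 fold change -0.34, SE 0.077, adjusted p = 0.000801, limma) and 1.32-fold lower than in PU1_KI (adjusted p = 9.52e-05, limma).

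Psma4 had the largest alpha ring change against WT. It had 34.6, 34.97, 39.7, 40.8 and 44.8 RPKM in the miR155_KO libraries, 45.4, 46.5, 47.9, 54.1 and 53.3 in the PU1_KI libraries, and 51.3, 50.5, 51.2 and 53.8 in the WT libraries. All 5 miR155_KO libraries were below every library of the other genotypes. The limma result against WT was 1.33-fold lower (log2 fold change -0.41, SE 0.074, adjusted p = 9.23e-05). Its locus overlaps AY074887 on the opposite strand over 165 bases, and that gene averaged 0.43 RPKM.

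In the beta ring, 5 of the 7 tested genes were lower in miR155_KO against WT (71.4%, against 35.3% of all genes). Psmb1 was not called against WT and had 131, 131, 132, 126 and 144 RPKM in the miR155_KO libraries, 144, 158, 159.5, 169 and 156 in the PU1_KI libraries, and 124, 142, 153 and 160.1 in the WT libraries. Its miR155_KO values overlapped the WT range, which was wide, and lay below every PU1_KI value. The log2 fold change of Psmb1 was -0.12 against WT (adjusted p = 0.154, limma) and -0.24 against PU1_KI (adjusted p = 0.00378, limma).

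Psmb4, another structural beta subunit, had 61.8, 66.4, 61.5, 59.9 and 78.7 RPKM in the miR155_KO libraries, 80.4, 82.2, 81.5, 91.1 and 85.9 in the PU1_KI libraries, and 80.7, 85.6, 84.1 and 91.9 in the WT libraries. Every miR155_KO library was below every WT and PU1_KI library, though miR155_KO_5 came close to the lowest of them. Psmb4 was 1.31-fold lower in miR155_KO than in WT (log2 fold change -0.39, SE 0.072, adjusted p = 0.000136, limma). Psmb2, also structural, had 70.1, 68.1, 70.02, 69.7 and 85.2 RPKM in the miR155_KO libraries, 87.9, 94.4, 99.3, 102 and 97.2 in the PU1_KI libraries, and 84.3, 90.9, 86.8 and 94.3 in the WT libraries. Its miR155_KO values were below all PU1_KI values, and miR155_KO_5 alone reached the WT range. Psmb2 was 1.32-fold lower in miR155_KO than in PU1_KI (log2 fold change -0.41, SE 0.064, adjusted p = 2.18e-05, limma).

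Of the 3 constitutive catalytic subunits, Psmb5 and Psmb7 were called lower in miR155_KO against both other genotypes and Psmb6 was not. Psmb5, which carries the chymotrypsin-like site, had 44.97, 49.02, 42.1, 40.1 and 56.6 RPKM in the miR155_KO libraries, 53.9, 56.3, 60.3, 64.6 and 51.7 in the PU1_KI libraries, and 52.1, 62.7, 66.01 and 59.4 in the WT libraries. The miR155_KO libraries were low except miR155_KO_5, which lay among the other genotypes. Psmb5 was 1.29-fold lower in miR155_KO than in WT (log2 fold change -0.37, SE 0.092, adjusted p = 0.00188, limma), and the call against PU1_KI (adjusted p = 0.00501) was lost with quantile normalization (log2 fold change -0.12, adjusted p = 0.127).

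Psmb7, the trypsin-like subunit, had 65.5, 65.04, 64.2, 65.8 and 75.7 RPKM in the miR155_KO libraries, 78.4, 86.3, 83.9, 92.5 and 83.98 in the PU1_KI libraries, and 74.1, 75.5, 75.2 and 85.5 in the WT libraries. In WT the library WT_4 stood above the other 3, and in miR155_KO the library miR155_KO_5 stood above the other 4 and overlapped WT. Psmb7 was 1.15-fold lower in miR155_KO than in WT (log2 fold change -0.21, SE 0.065, adjusted p = 0.00985, limma). Psmb6, the caspase-like subunit, had 63.9, 68.3, 60.5, 57.96 and 78.5 RPKM in the miR155_KO libraries, 59.6, 64.1, 69.3, 72.6 and 58.2 in the PU1_KI libraries, and 53.4, 67.7, 65.4 and 65.1 in the WT libraries. The 3 genotypes overlapped throughout for Psmb6. Its log2 fold change was 0.063 with SE 0.090 in miR155_KO against WT (adjusted p = 0.559, limma) and 0.042 in PU1_KI against WT (adjusted p = 0.763, limma). Psmb6 was called higher in miR155_KO against WT with quantile normalization, and against PU1_KI with both other scalings. Whether Psmb6 and Psmb5 differ in their change was not tested.

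Each catalytic subunit has an inducible counterpart that replaces it in immunoproteasomes. Psmb8, the counterpart of Psmb5, averaged 118 ± 6.21 RPKM in miR155_KO, 159 ± 6.22 RPKM in PU1_KI and 131 ± 9.49 RPKM in WT, Psmb9, that of Psmb6, averaged 84.5 ± 3.31 RPKM in miR155_KO, 95.1 ± 4.38 RPKM in PU1_KI and 75.6 ± 6.001 RPKM in WT, and Psmb10, that of Psmb7, averaged 23.2 ± 2.39 RPKM in miR155_KO, 32.2 ± 3.402 RPKM in PU1_KI and 31.4 ± 4.42 RPKM in WT (SD). The log2 ratio of Psmb5 to Psmb8 averaged -1.47 ± 0.11 in PU1_KI and -1.13 ± 0.090 in WT, a difference of -0.35 with no overlap between the 5 and 4 libraries (two-sided exact permutation p = 0.0159, the smallest this design allows; 0.0714 after adjustment over 9 tests). The ratio of Psmb6 to Psmb9 averaged -0.56 ± 0.13 in PU1_KI and -0.27 ± 0.040 in WT, a difference of -0.29 with the same exact and adjusted p. Neither passed the adjustment, and none of the other 7 ratio comparisons did. By limma, Psmb8 and Psmb9 were higher in PU1_KI than in WT (log2 fold change 0.28 and 0.33, adjusted p = 0.00177 and 0.000403). Psmb10 was not called there (0.041, adjusted p = 0.785, limma). In miR155_KO against WT, Psmb8 and Psmb10 were lower (-0.15 and -0.42, adjusted p = 0.0409 and 0.000814, limma). Psmb9 was higher in that comparison (0.16, adjusted p = 0.025, limma).

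**Figure D3:**
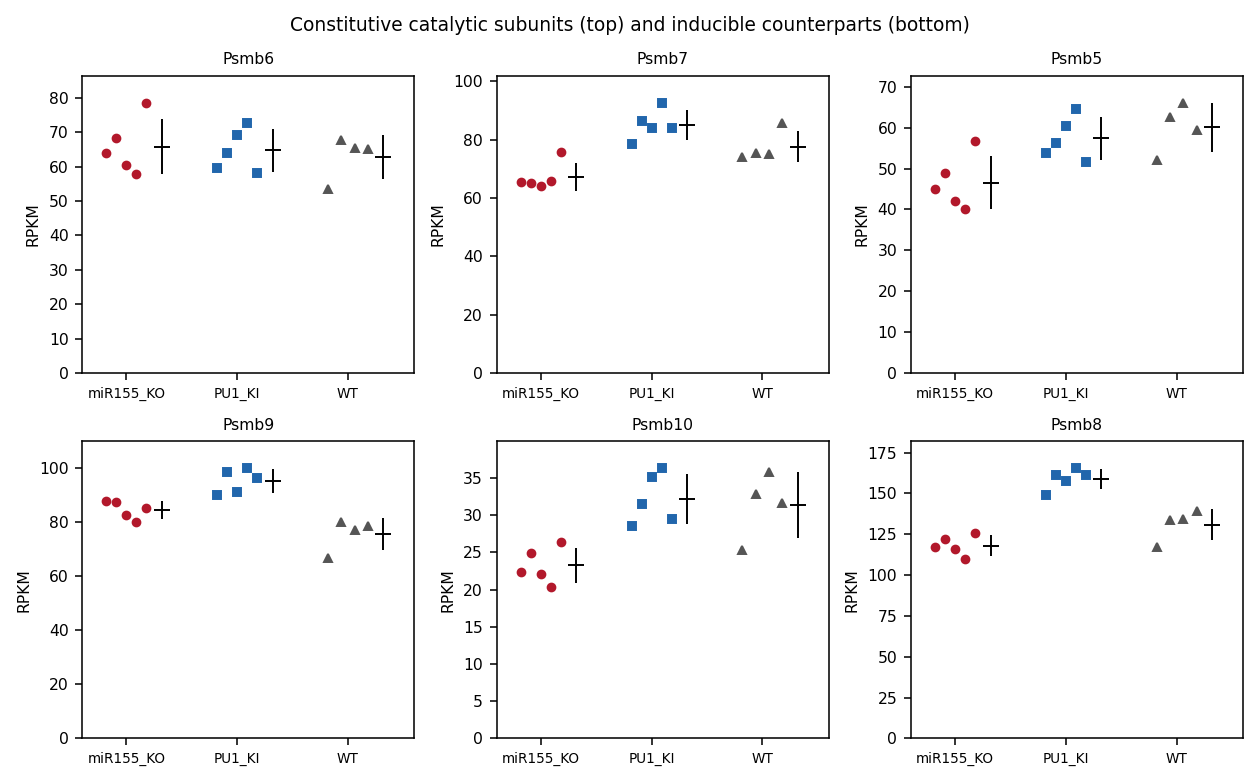
RPKM of the constitutive catalytic subunits (top row) and of their inducible counterparts (bottom row) by library, with mean and SD beside each genotype. The means of Psmb5 and Psmb7 are lowest in miR155_KO, though miR155_KO_5 reaches the WT range in both, Psmb6 overlaps in all 3 genotypes, and Psmb8 and Psmb9 are highest in PU1_KI.

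In the 19S cap, 13 of 17 genes were lower in miR155_KO against WT (76.5%, against 35.3% of all genes). None were higher, beside 27.2% of all genes, and the median log2 fold change was -0.23. Against PU1_KI, 14 of the 17 were lower in miR155_KO (82.4%, against 46.4% of all genes), with a median of -0.25. In PU1_KI against WT, 1 was higher and 1 lower (5.88% each), beside 23.7% and 4.03% of all genes. With median-of-ratios scaling 1 was higher and 9 were lower, beside 17.4% and 15.8% of all genes. The difference between core and cap was not tested.

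The 6 ATPases form the ring that unfolds substrates. In miR155_KO against WT, 5 of the 6 were lower (83.3%, against 35.3% of all genes). Psmc6, the exception, had a log2 fold change of 0.043 (adjusted p = 0.657, limma). Psmc5 had the highest level of the 6 and the largest change. It had 38.3, 40.6, 38.9, 39.6 and 48.7 RPKM in the miR155_KO libraries, 49.9, 53.1, 54.4, 60.1 and 55.7 in the PU1_KI libraries, and 55.9, 59.3, 56.1 and 62.3 in the WT libraries. All miR155_KO values of Psmc5 were below all PU1_KI and WT values, with miR155_KO_5 set apart from the other 4 and close to the lowest PU1_KI library. Psmc5 was 1.41-fold lower in miR155_KO than in WT (log2 fold change -0.500, SE 0.071, adjusted p = 5.52e-06, limma). Psmc3 overlaps Slc39a13 on the opposite strand over 4579 bases, and that gene averaged 2.22 RPKM beside 35.1 RPKM or more for Psmc3 in each genotype.

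The non-ATPase subunits include ubiquitin receptors, scaffold proteins and a deubiquitinase. In miR155_KO against WT, 8 of the 11 were lower (72.7%, against 35.3% of all genes), and Psmd8, Psmd11 and Psmd14 were not called. Psmd6, a subunit of the lid, had the largest change of any cap gene. It had 16.9, 18.2, 17.2, 18.4 and 19.95 RPKM in the miR155_KO libraries, 24.6, 25.8, 23.1, 26.8 and 24.2 in the PU1_KI libraries, and 28.5, 27.7, 28.96 and 30.9 in the WT libraries. The 3 genotypes did not overlap. Psmd6 was 1.58-fold lower in miR155_KO than in WT (log2 fold change -0.66, SE 0.060, adjusted p = 1.57e-08, limma), 1.36-fold lower than in PU1_KI (adjusted p = 1.65e-06), and 1.16-fold lower in PU1_KI than in WT (log2 fold change -0.22, SE 0.060, adjusted p = 0.0104, limma).

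Psmd14 is the deubiquitinase that removes ubiquitin chains at the cap. It had 33.7, 37.9, 39.8, 39.2 and 39.7 RPKM in the miR155_KO libraries, 45.7, 47.8, 48.8, 49.98 and 44.98 in the PU1_KI libraries, and 37.99, 38.05, 42.5 and 40.8 in the WT libraries. All PU1_KI libraries were above all others, and miR155_KO and WT overlapped. Psmd14 was 1.19-fold higher in PU1_KI than in WT (log2 fold change 0.25, SE 0.060, adjusted p = 0.00419, limma) and 1.25-fold lower in miR155_KO than in PU1_KI (adjusted p = 8.92e-05, limma). Its log2 fold change in miR155_KO against WT was -0.066 (adjusted p = 0.353, limma).

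Psmd8, a lid subunit, was the most abundant cap gene. It had 90.3, 91.9, 91.4, 91.9 and 107 RPKM in the miR155_KO libraries, 90.8, 95.6, 102, 110.4 and 102 in the PU1_KI libraries, and 92.3, 94.7, 94.4 and 102 in the WT libraries. The 3 genotypes overlapped. Its log2 fold change was -0.024 with SE 0.066 in miR155_KO against WT (adjusted p = 0.769, limma). Against PU1_KI it was -0.084 (adjusted p = 0.24, limma), and with quantile normalization 0.12 (adjusted p = 0.00619), so the direction turned with the scaling.

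Summed over its 14 tested genes, the 20S core had 759, 780.4, 761, 744 and 899.6 RPKM in the miR155_KO libraries, 882, 942, 953, 1031 and 948 in the PU1_KI libraries, and 855, 929, 940.3 and 979.6 in the WT libraries. Each miR155_KO sum was below every WT sum except that of miR155_KO_5. The means were 789 ± 63.4 in miR155_KO, 951 ± 53.04 in PU1_KI and 926 ± 51.9 in WT (SD, summed RPKM). As a share of RPKM summed over all genes, the core took 0.392 ± 0.0171% in miR155_KO, 0.433 ± 0.00663% in PU1_KI and 0.448 ± 0.00602% in WT. The 17 cap genes summed to 534 ± 45.1 in miR155_KO, 626 ± 38.4 in PU1_KI and 630.1 ± 23.3 in WT (SD, summed RPKM). Their share was 0.265 ± 0.01096% in miR155_KO, 0.285 ± 0.00486% in PU1_KI and 0.305 ± 0.00851% in WT. These sums and shares were not tested.

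**Figure D4:**
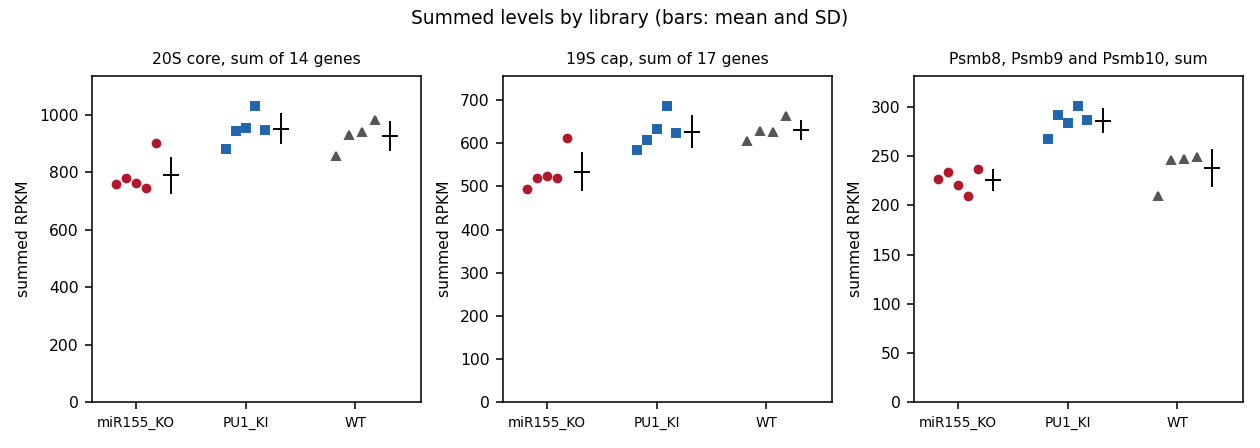
RPKM summed per library over the 14 core genes, the 17 cap genes, and Psmb8, Psmb9 and Psmb10, with mean and SD beside each genotype. In core and cap the miR155_KO points lie lowest apart from miR155_KO_5; the immunoproteasome sum is highest in PU1_KI.

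Activators bind the ends of the core in place of the cap. The 6 genes of this group include the inhibitor Psmf1 and the pseudogene Psme2b-ps, which may share reads with Psme2. All 6 were called in miR155_KO against WT, 5 lower and Psme4 higher, with a median of -0.46. Of all genes 62.5% were called there, 35.3% lower and 27.2% higher. By limma none of the 6 was called in PU1_KI against WT, beside 27.7% of all genes, and 1, Psme1, had an unadjusted p under 0.05. Psme1, one of the pair of subunits of the interferon-inducible activator, had 80.7, 86.5, 79.4, 71.1 and 93.8 RPKM in the miR155_KO libraries, 122, 134, 141, 153 and 123 in the PU1_KI libraries, and 96.4, 118, 125 and 121 in the WT libraries. Every miR155_KO value was below every value of the other genotypes, and PU1_KI and WT overlapped narrowly. Psme1 was 1.63-fold lower in miR155_KO than in PU1_KI (log2 fold change -0.71, SE 0.083, adjusted p = 6.48e-07, limma) and 1.39-fold lower than in WT (adjusted p = 0.000108, limma).

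The log2 fold change of Psme1 in PU1_KI against WT was 0.23 (adjusted p = 0.0611, limma), and it was called higher when any of WT_3, PU1_KI_1, PU1_KI_5, miR155_KO_4 or miR155_KO_5 was left out. Psme2, its partner in the same activator, averaged 39.1 ± 2.46 RPKM in miR155_KO, 56.2 ± 4.47 RPKM in PU1_KI and 52.9 ± 4.45 RPKM in WT (SD) and was 1.35-fold lower in miR155_KO than in WT (adjusted p = 2.97e-05, limma). The pseudogene Psme2b-ps averaged 2.95 ± 0.276 RPKM in miR155_KO, 4.85 ± 0.386 RPKM in PU1_KI and 4.65 ± 0.367 RPKM in WT, and its reads and those of Psme2 may not be fully separate.

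Psme3 encodes the nuclear activator. It had 26.5, 27.6, 27.2, 27.6 and 36.02 RPKM in the miR155_KO libraries, 37.4, 41.5, 44.95, 50.3 and 41.8 in the PU1_KI libraries, and 44.1, 43.97, 46.1 and 48.3 in the WT libraries. All miR155_KO libraries were below all others, and miR155_KO_5 stood well above the other 4. Psme3 was 1.57-fold lower in miR155_KO than in WT (log2 fold change -0.65, SE 0.087, adjusted p = 2.56e-06, limma) and 1.49-fold lower than in PU1_KI (adjusted p = 7.49e-06, limma).

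Psme4 encodes a large single-chain activator and was higher in miR155_KO. It had 17.05, 16.8, 20.4, 19.9 and 18.04 RPKM in the miR155_KO libraries, 14.3, 13.7, 14.1, 14.5 and 15.1 in the PU1_KI libraries, and 15.4, 13.5, 14.3 and 14.7 in the WT libraries. All miR155_KO libraries were above all WT and PU1_KI libraries. Psme4 was 1.26-fold higher in miR155_KO than in WT (log2 fold change 0.34, SE 0.063, adjusted p = 0.000124, limma). Its log2 fold change in PU1_KI against WT was -0.011 (adjusted p = 0.919, limma). Psme4 and Psmd5 were singled out after their values were seen, as the members higher in miR155_KO with Psmg4.

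**Figure D5:**
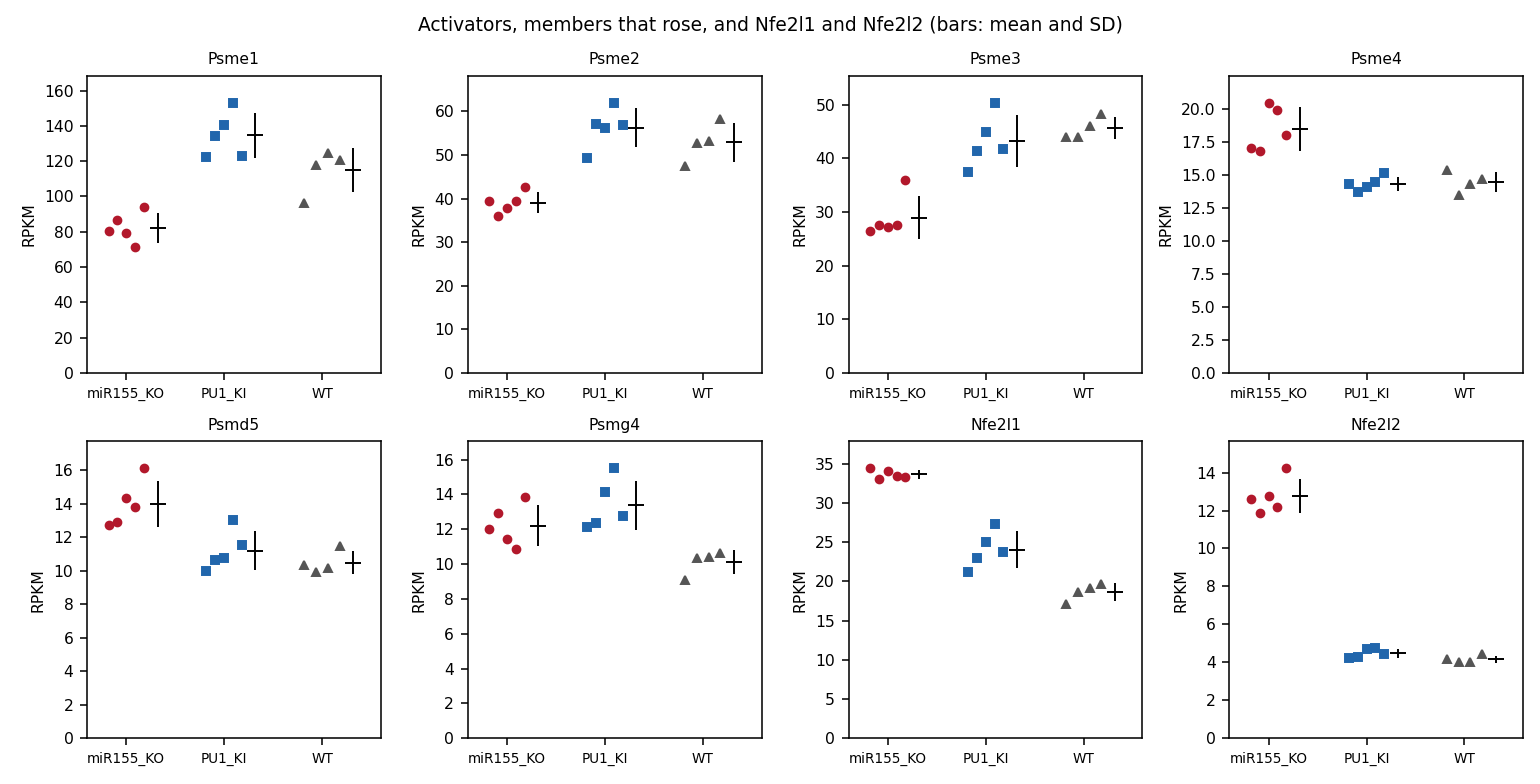
RPKM by library, with mean and SD beside each genotype, of the activators Psme1, Psme2, Psme3 and Psme4, the chaperones Psmd5 and Psmg4, and the transcription factors Nfe2l1 and Nfe2l2. Psme1, Psme2 and Psme3 are lowest in miR155_KO, where Psme4, Psmd5, Nfe2l1 and Nfe2l2 are highest.

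Assembly chaperones hold partly built rings and are absent from the finished particle. Of the 7, 4 were lower and 2 higher in miR155_KO against WT (57.1% and 28.6%), beside 35.3% and 27.2% of all genes. In PU1_KI against WT 1 was lower and 1 higher (14.3% each), beside 4.03% and 23.7% of all genes. Psmg1, which pairs with Psmg2 to start the alpha ring, had 8.13, 7.86, 7.65, 7.79 and 8.79 RPKM in the miR155_KO libraries, 10.3, 11.02, 10.1, 11.8 and 9.65 in the PU1_KI libraries, and 11.2, 12.4, 11.7 and 12.5 in the WT libraries. All miR155_KO libraries were below the others, and PU1_KI and WT overlapped. Psmg1 was 1.46-fold lower in miR155_KO than in WT (log2 fold change -0.54, SE 0.062, adjusted p = 4.15e-07, limma).

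The log2 fold change of Psmg1 in PU1_KI against WT was -0.17 (adjusted p = 0.047, limma). That call was lost without WT_2, WT_3, WT_4, PU1_KI_1, PU1_KI_2, PU1_KI_3, PU1_KI_5 or any of miR155_KO_1 to miR155_KO_4, with an adjusted p of up to 0.124. Psmg2 was the most abundant chaperone and had 17.9, 18.1, 18.4, 16.8 and 18.2 RPKM in the miR155_KO libraries, 19.6, 20.8, 21.6, 20.99 and 20.2 in the PU1_KI libraries, and 16.8, 19.97, 19.8 and 20.9 in the WT libraries. It overlapped between miR155_KO and WT, and all miR155_KO values were below all PU1_KI values. Its log2 fold change was -0.20 in miR155_KO against PU1_KI (adjusted p = 0.00473, limma), and it was -0.066 with median-of-ratios scaling and -0.018 with quantile normalization, neither of them called (adjusted p = 0.185 and 0.715).

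Psmg4, a chaperone that pairs with Psmg3, was higher in both mutants. It had 12.01, 12.9, 11.4, 10.9 and 13.8 RPKM in the miR155_KO libraries, 12.1, 12.4, 14.1, 15.5 and 12.8 in the PU1_KI libraries, and 9.08, 10.4, 10.4 and 10.6 in the WT libraries. All libraries of both mutants were above all 4 WT libraries, and the mutants overlapped each other. Psmg4 was 1.304-fold higher in PU1_KI than in WT (log2 fold change 0.38, SE 0.078, adjusted p = 0.00113, limma) and 1.19-fold higher in miR155_KO than in WT (log2 fold change 0.26, SE 0.078, adjusted p = 0.00803, limma). Its partner Psmg3 had a log2 fold change of -0.26 in miR155_KO against WT (adjusted p = 0.0278, limma), a call lost with no filter and without WT_2, WT_3, WT_4, miR155_KO_1, miR155_KO_3 or miR155_KO_4.

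Psmd5, a chaperone of the cap's ATPase ring, was higher in miR155_KO. It had 12.8, 12.9, 14.4, 13.8 and 16.1 RPKM in the miR155_KO libraries, 9.99, 10.6, 10.8, 13.1 and 11.5 in the PU1_KI libraries, and 10.4, 9.92, 10.2 and 11.5 in the WT libraries. The miR155_KO libraries were above all WT libraries and overlapped PU1_KI through PU1_KI_4. Psmd5 was 1.32-fold higher in miR155_KO than in WT (log2 fold change 0.40, SE 0.077, adjusted p = 0.000181, limma) and 1.24-fold higher than in PU1_KI (adjusted p = 0.00108, limma). Psmc3ip, which is not a proteasome gene by function, had 3.102, 3.35, 2.93, 2.86 and 3.45 RPKM in the miR155_KO libraries, 4.199, 3.81, 3.55, 4.79 and 4.51 in the PU1_KI libraries, and 4.34, 4.96, 4.93 and 4.78 in the WT libraries. Its miR155_KO values lay below those of both other genotypes, and it was 1.44-fold lower in miR155_KO than in WT (log2 fold change -0.53, SE 0.076, adjusted p = 6.21e-06, limma). Its locus overlaps Mlx on the opposite strand over 385 bases, and Mlx averaged 10.8 RPKM, above Psmc3ip itself.

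miR-155 binds transcripts through its seed, bases 2 to 8 from the 5′ end, shown here in capitals because the genotypes differ in this microRNA or in a site for it. The mature sequence is from RefSeq, build GRCm38.p6, chr16:84714143-84714165, plus strand.
mmu-miR-155-5p: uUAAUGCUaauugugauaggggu
The matching DNA letters searched in 3′ UTRs on the transcript strand were AGCATTAA, AGCATTA and GCATTAA, the shorter pair being contained in the first. At least 1 was found in 5 of the 45 tested proteasome genes (11.1%), against 11.9% of 9433 tested genes with a UTR in GENCODE M21 for GRCm38. Proteasome UTRs were shorter, with a median of 213 bases against 931 for all. The matches, in capitals, are shown for 2 genes that were higher in miR155_KO and for the gene with the longest match.
Psme4, chr11:30880071-30880097, plus strand: tgttgagtttAGCATTAgtagggccat
Psmd5, chr2:34851383-34851409, minus strand: gcttttcagtAGCATTAtatatgtgtt
Psmf1, chr2:151717160-151717187, minus strand: tatgcaaggaAGCATTAAaggaacagtg
Psme4 and Psmd5 were higher in miR155_KO against WT, and Psmf1, a proteasome inhibitor with the longest match, was 1.12-fold lower (adjusted p = 0.0348, limma), a call lost without WT_2, WT_3, WT_4 or any of miR155_KO_1 to miR155_KO_4. Psma3 was also lower, Psmb1 was not called, and Psmg4 had no match. A match is a run of letters and was not tested as a site.

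Genes that act with the proteasome were counted from a list of 55, of which 53 were tested. In miR155_KO against WT, 14 were higher and 20 lower, in PU1_KI against WT 6 were higher and 2 lower, and in miR155_KO against PU1_KI 13 were higher and 22 lower. The shares in miR155_KO against WT were 26.4% higher and 37.7% lower, close to the 27.2% and 35.3% of all genes. Against PU1_KI they were 24.5% higher and 41.5% lower, beside 17.9% and 46.4% of all genes, and in PU1_KI against WT 11.3% and 3.77%, beside 23.7% and 4.03%. The balance turned with the scaling, and that of all genes moved as well. Median-of-ratios and quantile scaling gave 2 and 2 higher with 12 and 13 lower (22.6% and 24.5%) in PU1_KI against WT. Of all genes 17.4% and 15.8% were then higher there and 15.8% and 16.1% lower. In miR155_KO against PU1_KI the same scalings gave 21 and 25 higher (39.6% and 47.2%) with 11 and 13 lower (20.8% and 24.5%). Of all genes 31.5% and 29.4% were then higher in that comparison and 31.3% and 33.4% lower. Pomp, the chaperone of core maturation, averaged 83.9 ± 5.64 RPKM in miR155_KO, 96.7 ± 6.72 RPKM in PU1_KI and 97.2 ± 9.198 RPKM in WT (SD) and was 1.16-fold lower in miR155_KO than in WT (adjusted p = 0.0148, limma). Ube2d1, a ubiquitin-conjugating enzyme, had 10.3, 11.2, 11.6, 12.02 and 12.04 RPKM in the miR155_KO libraries, 5.05, 5.44, 6.07, 6.19 and 6.32 in the PU1_KI libraries, and 5.86, 5.77, 6.23 and 6.38 in the WT libraries, and its miR155_KO libraries were all above the rest. It was 1.89-fold higher in miR155_KO than in PU1_KI (adjusted p = 3.32e-10, limma).

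Of the 6 tested genes that control proteasome and stress genes, 4 were higher and 1 lower in miR155_KO against WT. These shares were 66.7% and 16.7%, beside 27.2% and 35.3% of all genes. Nfe2l1 is the factor known to raise proteasome genes when the proteasome is inhibited. It had 34.4, 32.996, 34.03, 33.4 and 33.3 RPKM in the miR155_KO libraries, 21.1, 22.98, 24.99, 27.4 and 23.8 in the PU1_KI libraries, and 17.1, 18.6, 19.2 and 19.7 in the WT libraries. The 3 genotypes did not overlap, with miR155_KO highest and WT lowest. Nfe2l1 was 1.78-fold higher in miR155_KO than in WT (log2 fold change 0.83, SE 0.064, adjusted p = 1.75e-09, limma) and 1.28-fold higher in PU1_KI than in WT (adjusted p = 0.000403, limma). Its protein is controlled after translation.

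Nfe2l2, a related factor of the oxidative stress response, had 12.6, 11.9, 12.8, 12.2 and 14.2 RPKM in the miR155_KO libraries, 4.25, 4.27, 4.69, 4.74 and 4.44 in the PU1_KI libraries, and 4.203, 3.999, 4.02 and 4.43 in the WT libraries. The miR155_KO libraries were far above the others, which overlapped. Nfe2l2 was 2.84-fold higher in miR155_KO than in WT (log2 fold change 1.504, SE 0.058, adjusted p = 8.85e-14, limma). Bach1, a repressor known to compete with Nfe2l2 for its sites, averaged 3.84 ± 0.166 RPKM in miR155_KO, 1.38 ± 0.169 RPKM in PU1_KI and 1.67 ± 0.102 RPKM in WT (SD) and had log2 fold changes of 1.00 in miR155_KO (adjusted p = 1.66e-10) and -0.21 in PU1_KI (adjusted p = 0.0217) against WT by limma. Mafg, a small partner of these factors, averaged 7.88 ± 0.3903 RPKM in miR155_KO, 4.57 ± 0.419 RPKM in PU1_KI and 4.35 ± 0.112 RPKM in WT and was higher in miR155_KO, and Mafk, another, averaged 2.94 ± 0.318 RPKM in miR155_KO, 5.65 ± 0.386 RPKM in PU1_KI and 5.998 ± 0.452 RPKM in WT and was lower (adjusted p = 1.66e-09 for Mafg and 1.9e-09 for Mafk against WT, limma). Faf1, an adaptor of the p97 unfoldase, was 1.16-fold higher in PU1_KI than in WT (adjusted p = 0.0143, limma).

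A motif known to be bound by Nfe2l1 and Nfe2l2 with their partners was searched as TGACNNNGC on both strands in RefSeq promoters, 250 bases before to 50 after each start, build GRCm38.p6. It was found in 6 of the 39 proteasome genes with a matched promoter (15.4%), against 13.99% of all 27025 genes and 17.4% of the 6962 tested genes matched. A gene was counted when any of its promoters held the motif. CCAAT was found in 14 (35.9%, against 41.1% of all and 43.3% of tested) and GAGGAAGT, a form of the PU.1 motif, in 3 (7.69%, against 3.69% of all and 4.05% of tested); none of the 3 motifs contains another. The windows shown hold the first motif, in capitals, in a gene called lower, a gene not called and a gene called higher in miR155_KO against WT.
Psmb5, chr14:54618026-54618050, minus strand: tgaagttgTGACGTCGCggcgttgc
Psmb6, chr11:70525340-70525364, plus strand: aaagagagTGACGGAGCgctttacg
Psme4, chr11:30771760-30771784, plus strand: ctgcggctGCAGCGTCAccagaaga
In Psme4 the motif reads on the opposite strand. These 3 were chosen by their calls; the other 3 genes with the motif were Psmd12, Psmd9 and Psmc6, with log2 fold changes of -0.51, -0.35 and 0.043 in miR155_KO against WT.

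Plasma cell markers had lower sums in both mutants than in WT. The 4 markers Sdc1, Igj, Prdm1 and Xbp1, all above the filter, summed to 209.6 to 342 RPKM in miR155_KO, 178 to 286 RPKM in PU1_KI and 382 to 462 RPKM in WT. Igj, which joins secreted antibody, had a log2 fold change of -0.91 in miR155_KO against WT (adjusted p = 0.000232, limma) and -1.12 in PU1_KI against WT (adjusted p = 0.000124, limma). Prdm1 and Xbp1 were also lower in miR155_KO against WT, at -0.43 and -0.32, and Sdc1 was at 0.17 (adjusted p = 0.228, limma). The part of these markers in the proteasome result was not tested. Among B cell markers, Ms4a1 was also lower in miR155_KO against WT, at -0.76 (adjusted p = 4.15e-09, limma), and Pax5 was at 0.0041 (adjusted p = 0.96, limma).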

How the data were processed

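Polyadenylated RNA was sequenced from 14 libraries (miR155_KO n = 5, PU1_KI n = 5, WT n = 4). The authors deposited gene RPKM values; Trim Galore, TopHat and build NCBIM37 are named in the submitters' processing notes, without versions; the sources used here state neither strand setting nor annotation. The smallest values were read as whole reads, which gave 31.5 M to 52.4 M reads per library; 66.4 to 72.8% of the 250 lowest values in genes spanning under 2500 bases came within 0.01 reads of a whole number, too few for a count test, so none was run. At this depth 1 RPKM on a gene of 2 kb is 63.0 to 104.9 reads.

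Each gene's log2(RPKM + 0.5) was fitted with limma 3.58.1 (R 4.3.3), giving a mean to each genotype over all 14 libraries, with empirical Bayes with an intensity trend, genes with at least 1 RPKM in at least 4 libraries, and Benjamini-Hochberg adjustment over 9627 genes. Fold changes are on that log2 scale and understate the change of low genes. On simulated data with known changes the fit recovered 47 of 50 genes at 1.5-fold and 21 of 50 at 1.2-fold in miR155_KO against WT, and made 4 calls among 9427 unchanged genes. The simulated noise was independent between genes and held no shift shared by a whole library, and most genes were unchanged. These rates therefore need not hold for the measured libraries. Ratios were tested by two-sided exact permutation in scipy 1.17.1. Alternatives were other pseudocounts (0.1 and 1), filters (none, and at least 5 RPKM), scalings, spread estimates, a replicate block and leaving out each library.

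The proteasome members, their roles, the pathway list, the marker lists and the tests were chosen with earlier results of these data known. Named were, in each role, the most abundant gene and the gene with the largest called change in each comparison, the catalytic subunits, the untested genes, and 3 pathway genes per comparison with the smallest adjusted p; Psme2, Psmd5, Psme4 and others named only for contrast were chosen after their values were seen. Promoter and microRNA sequences are from RefSeq (GRCm38.p6) and UTRs from GENCODE M21. Pool and culture day are not given, so batch and genotype cannot be told apart. The 63 table entries that repeat a gene were kept as deposited.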

Additional observations from a re-analysis of the deposited data

Results flagged for a closer look

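Single libraries stood apart from the others of their genotype in 12 of 84 groups of values examined; chance flags about 1 in 20 independent groups, but these overlap, since sums contain the genes and miR155_KO_5 was the highest miR155_KO library in 54.3% of all genes. In 10 of the 12 the library was miR155_KO_5, and in each of those 10 it was the highest of 5. The genes were Psmb2 at 85.2 RPKM, against 68.1 to 70.1 RPKM in the other miR155_KO libraries, Psmb7 at 75.7 RPKM, against 64.2 to 65.8 RPKM, Psmc5 at 48.7 RPKM, against 38.3 to 40.6 RPKM, Psmd8 at 107 RPKM, against 90.3 to 91.9 RPKM, and Psme3 at 36.0 RPKM, against 26.5 to 27.6 RPKM. The summed levels were 322 RPKM for the alpha ring, 218 RPKM for the ATPases, 394 RPKM for the non-ATPase subunits, 899.6 RPKM for the 20S core and 612 RPKM for the 19S cap. Without miR155_KO_5, 35 of the 45 genes were lower and 3 higher in miR155_KO against WT, and 40 were lower and 2 higher against PU1_KI.

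In WT, Psmb7 reached 85.5 RPKM in WT_4, against 74.1 to 75.5 RPKM in the other 3 libraries. The summed immunoproteasome genes were at 209 RPKM in WT_1, below 246 to 249 RPKM in the other WT libraries.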

How the results depend on the processing

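In miR155_KO against WT, 25 to 36 genes were lower and 3 to 5 higher over 23 alternatives. Calls among all genes moved too, with 2589 to 3732 lower and 1468 to 3814 higher, and the number tested changed with the filter. Median-of-ratios scaling and quantile normalization moved the other comparisons most. In miR155_KO against PU1_KI they gave 24 and 22 lower, 4 and 6 higher, and medians of -0.13 and -0.10. In PU1_KI against WT they gave 15 and 14 lower and medians of -0.091 and -0.086. Quantile normalization gave 5 higher in miR155_KO against WT and turned the direction of Psmd8 in miR155_KO against PU1_KI (0.12). In PU1_KI against WT, the call of Psmg1 was lost, leaving 1 lower, with no filter, no intensity trend, only the 2 genotypes compared, and the replicate block. Without a filter, Psmb11 was called higher in miR155_KO against each other genotype. Pathway genes gave, under the same scalings in that order, 2 and 2 higher and 12 and 13 lower in PU1_KI against WT, where a filter at 5 RPKM gave 1 lower, and 21 and 25 higher and 11 and 13 lower in miR155_KO against PU1_KI; against WT quantile normalization gave 21 higher. Shares of all genes called moved under these scalings too, as given with the counts above. The cause of these shifts was not tested.

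Leaving out each library gave 1 to 3 genes lower and 2 to 4 higher in PU1_KI against WT (4 without PU1_KI_1, which added Psmd11 and Psme1), and 35 to 40 lower in miR155_KO against PU1_KI. Of all genes, 282 to 485 were then lower and 1625 to 2789 higher in PU1_KI against WT. In miR155_KO against PU1_KI, 3955 to 4787 of all genes were lower. Pathway genes in PU1_KI against WT ranged from 1 to 8 higher and 0 to 2 lower. The ratio differences ranged from -0.38 to -0.30 (Psmb5 to Psmb8, PU1_KI against WT), -0.33 to -0.25 (Psmb6 to Psmb9, PU1_KI against WT) and 0.092 to 0.17 (Psmb7 to Psmb10, miR155_KO against PU1_KI). Each passed 0.05 (adjusted p = 0.0476 by exact permutation) without miR155_KO_2 and in no other omission. The PU1_KI against WT differences use no miR155_KO library, so only the adjustment changed for them there. Leaving out a PU1_KI or WT library raised the smallest p their exact test can give, which made passing harder. For these differences the passes and failures therefore cannot show whether the result depends on single libraries. Ratio alternatives were chosen after seeing the data.

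With the replicate number as a block, 35 genes were lower and 3 higher in miR155_KO against WT, 39 lower and 2 higher in miR155_KO against PU1_KI, and 1 lower and 3 higher in PU1_KI against WT. No label ties same-numbered libraries to each other and they were not treated as pairs; whether they share a source is not known. Their deviations correlated at 0.04 to 0.36 for PU1_KI with WT, at -0.28 to 0.47 for miR155_KO with WT and at -0.39 to 0.22 for miR155_KO with PU1_KI.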
